A study of Mus musculus with 2 samples.

Results

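The genes described here encode the proteins of the mitochondrial ribosome. They were taken by symbol, as protein-coding genes of the mouse genome build GRCm38 whose symbol is Mrpl (large subunit) or Mrps (small subunit) followed by a number. This gave 78 members, 49 Mrpl and 29 Mrps genes, among 21774 protein-coding genes, on 17 chromosomes. The values come from chromatin immunoprecipitation with sequencing (ChIP-seq) for H2AZ, a variant of histone H2A, in neural progenitor cells. These came from brains of C57BL/6 mice on embryonic day 13. The series held 1 H2AZ library and 1 library of input DNA from the same kind of cells, and no altered genotype or treatment was named for either. Whether embryos were pooled was not stated. The deposited data were a list of H2AZ peaks, each with a position and a score, and the meaning of the score was not named. Since each group was a single library, no value could be checked in a replicate, no test was made, and the depth of sequencing was unknown. The main counts and medians of the members are therefore given beside the same values over all protein-coding genes.

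The mitochondrial ribosome translates the few messenger RNAs encoded by mitochondrial DNA, which specify core subunits of the respiratory chain and ATP synthase. All of its proteins are encoded in the nucleus, made in the cytosol and imported, while its ribosomal RNAs come from mitochondrial DNA. H2AZ is placed into nucleosomes by dedicated remodelling complexes and is known to flank the transcription start sites of many genes.

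Promoters of 7 members are shown first, because most of the peaks described below lie at or near such sequences. They run from 250 bases before to 50 bases after a transcription start, are taken from RefSeq (GRCm38.p6), and are written 5′ to 3′ on the strand of the gene. Of the 78 members, 69 had a promoter in this table. Capitals mark matches, on either strand, to 5 motifs. These are the ETS family motif CCGGAAG, the YY1 motif AAGATGGCG, the GC box with the letters GGGCGG, the TATA box with the letters TATAAA, and the NRF1 motif. The matches in the printed promoters did not overlap each other. Mrps18c (chr5:100798509-100798808, plus strand) and Mrpl37 (chr4:107066817-107067116, minus strand) had the highest peak scores of all members, 28.6 and 28.3. Mrpl35 (chr6:71823735-71824034, minus strand) and Mrpl49 (chr19:6057706-6058005, minus strand) had the lowest scores among members with a listed promoter, 9.72 and 10.1. Mrpl22 (chr11:58171414-58171713, plus strand) and Mrpl40 (chr16:18876588-18876887, minus strand) had no peak at either gene end, and the listed start of Mrpl22 lay 1621 bp inside the annotated gene end. Mrps11 (chr7:78782881-78783180, plus strand) was added after its value was seen, because its promoter faces that of Mrpl46, whose 5′ end lies 42 bp away on the other strand.
Mrps18c: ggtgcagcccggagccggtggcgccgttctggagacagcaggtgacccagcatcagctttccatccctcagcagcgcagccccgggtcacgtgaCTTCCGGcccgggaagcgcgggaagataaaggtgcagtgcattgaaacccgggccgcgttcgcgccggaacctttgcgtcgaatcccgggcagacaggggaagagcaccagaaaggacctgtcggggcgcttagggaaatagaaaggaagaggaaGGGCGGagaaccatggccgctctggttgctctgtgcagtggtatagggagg
Mrpl37: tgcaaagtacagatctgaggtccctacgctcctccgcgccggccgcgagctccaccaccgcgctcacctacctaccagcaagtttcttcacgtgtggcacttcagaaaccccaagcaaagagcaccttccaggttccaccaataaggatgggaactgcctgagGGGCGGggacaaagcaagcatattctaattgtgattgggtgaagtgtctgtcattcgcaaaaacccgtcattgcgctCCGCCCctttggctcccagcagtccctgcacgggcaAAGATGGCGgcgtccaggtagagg
Mrpl35: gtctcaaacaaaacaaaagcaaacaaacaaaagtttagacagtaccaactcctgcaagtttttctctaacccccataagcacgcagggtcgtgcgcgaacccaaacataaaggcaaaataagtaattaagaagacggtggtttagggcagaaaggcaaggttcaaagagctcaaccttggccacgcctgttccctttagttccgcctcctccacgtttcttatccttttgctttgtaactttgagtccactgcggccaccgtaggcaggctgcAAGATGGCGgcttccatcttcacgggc
Mrpl49: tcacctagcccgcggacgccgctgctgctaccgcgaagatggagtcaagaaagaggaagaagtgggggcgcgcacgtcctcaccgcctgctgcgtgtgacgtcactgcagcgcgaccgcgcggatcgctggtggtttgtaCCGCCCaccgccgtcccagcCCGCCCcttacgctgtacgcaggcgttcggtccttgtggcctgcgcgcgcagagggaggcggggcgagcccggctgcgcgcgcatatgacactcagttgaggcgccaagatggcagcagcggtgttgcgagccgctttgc
Mrpl22: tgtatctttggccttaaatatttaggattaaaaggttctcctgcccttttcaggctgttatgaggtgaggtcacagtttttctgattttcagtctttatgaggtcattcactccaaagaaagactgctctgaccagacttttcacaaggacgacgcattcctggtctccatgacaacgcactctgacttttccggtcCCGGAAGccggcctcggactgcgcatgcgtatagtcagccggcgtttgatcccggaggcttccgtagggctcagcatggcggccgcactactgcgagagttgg
Mrpl40: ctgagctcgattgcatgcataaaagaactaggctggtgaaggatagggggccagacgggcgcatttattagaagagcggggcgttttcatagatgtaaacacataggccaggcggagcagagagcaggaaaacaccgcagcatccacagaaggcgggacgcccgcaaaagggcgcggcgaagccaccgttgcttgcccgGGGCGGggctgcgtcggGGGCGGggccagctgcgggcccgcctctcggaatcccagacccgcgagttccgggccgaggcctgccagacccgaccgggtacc
Mrps11: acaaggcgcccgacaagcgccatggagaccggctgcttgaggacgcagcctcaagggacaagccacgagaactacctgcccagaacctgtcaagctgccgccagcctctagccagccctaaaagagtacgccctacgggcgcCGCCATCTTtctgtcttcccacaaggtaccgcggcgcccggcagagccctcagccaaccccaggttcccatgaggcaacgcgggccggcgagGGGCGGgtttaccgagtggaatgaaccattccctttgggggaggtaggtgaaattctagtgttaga

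Nearly every mitochondrial ribosomal protein gene carried H2AZ at a gene end. A peak was assigned to a gene if it reached within 1 kb of either annotated end of that gene, and the highest-scoring such peak was used. By this rule 72 of the 78 members (92.3%) had a peak, against 55.4% of all protein-coding genes. The gap was smaller among genes with 20 or more CpG dinucleotides in the promoter, where 34 of 38 members (89.5%) and 81.4% of all protein-coding genes had a gene-end peak, a comparison chosen after the data were seen. The share was 46 of 49 for Mrpl genes and 26 of 29 for Mrps genes. In 68 of the 72 members the peak covered a gene end, a count for which no value over all genes is given. In the other 4 its nearer edge lay inside the 1 kb limit, at 595 bp for Mrpl4, 524 bp for Mrpl24, 370 bp for Mrpl52 and 343 bp for Mrpl18. No member lay just beyond the limit, since the nearest peak to any of the members without one was 26.9 kb away, at Mrpl57.

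The scores of the members were of middle size and close together. Their median was 18.2 with quartiles of 15.6 and 19.99, where all protein-coding genes with a gene-end peak had a median of 17.1 and quartiles of 12.9 and 21.2. Of the 72 members, 7 lay below the lower quartile of all genes, 23 between it and the median, 30 between the median and the upper quartile, and 12 above. The range of the members was 7.84 to 28.6, against 4.18 to 38.8 over all genes.

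The highest scores were found at members of both subunits. Mrps18c, a homologue of bacterial ribosomal protein S18, had a score of 28.6 (rank 361 in the deposited list, chr5:100797503-100799941). Mrpl37, a protein specific to the mitochondrial large subunit, followed with 28.3 (rank 367, chr4:107066082-107068050). Mrps36, which has since been recognised as a part of the 2-oxoglutarate dehydrogenase complex, scored 27.7 (rank 471, chr13:100743498-100745571). Mrpl36, Mrpl50 and Mrpl3 scored 25.4, 25.1 and 24.2. Mrpl21, Mrpl33, Mrpl34 and Mrps24 completed the first 10 with 23.6, 23.0, 22.7 and 22.3. Of these 10, 4 peaks were not shared with another protein-coding gene, namely those of Mrps36, Mrpl3, Mrpl33 and Mrps24.

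The lowest scores also came from both subunits. Mrpl54 had 7.84, at percentile 5.2 of all protein-coding genes with a gene-end peak. Mrpl35 and Mrpl49 had 9.72 and 10.1. Mrps2 had 10.9, and Mrps18a, whose protein sits in the large subunit despite its name, had 11.3. In the plot of scores by gene these 5 stand at the foot of their columns, above the members without a peak.

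**Figure D1:**
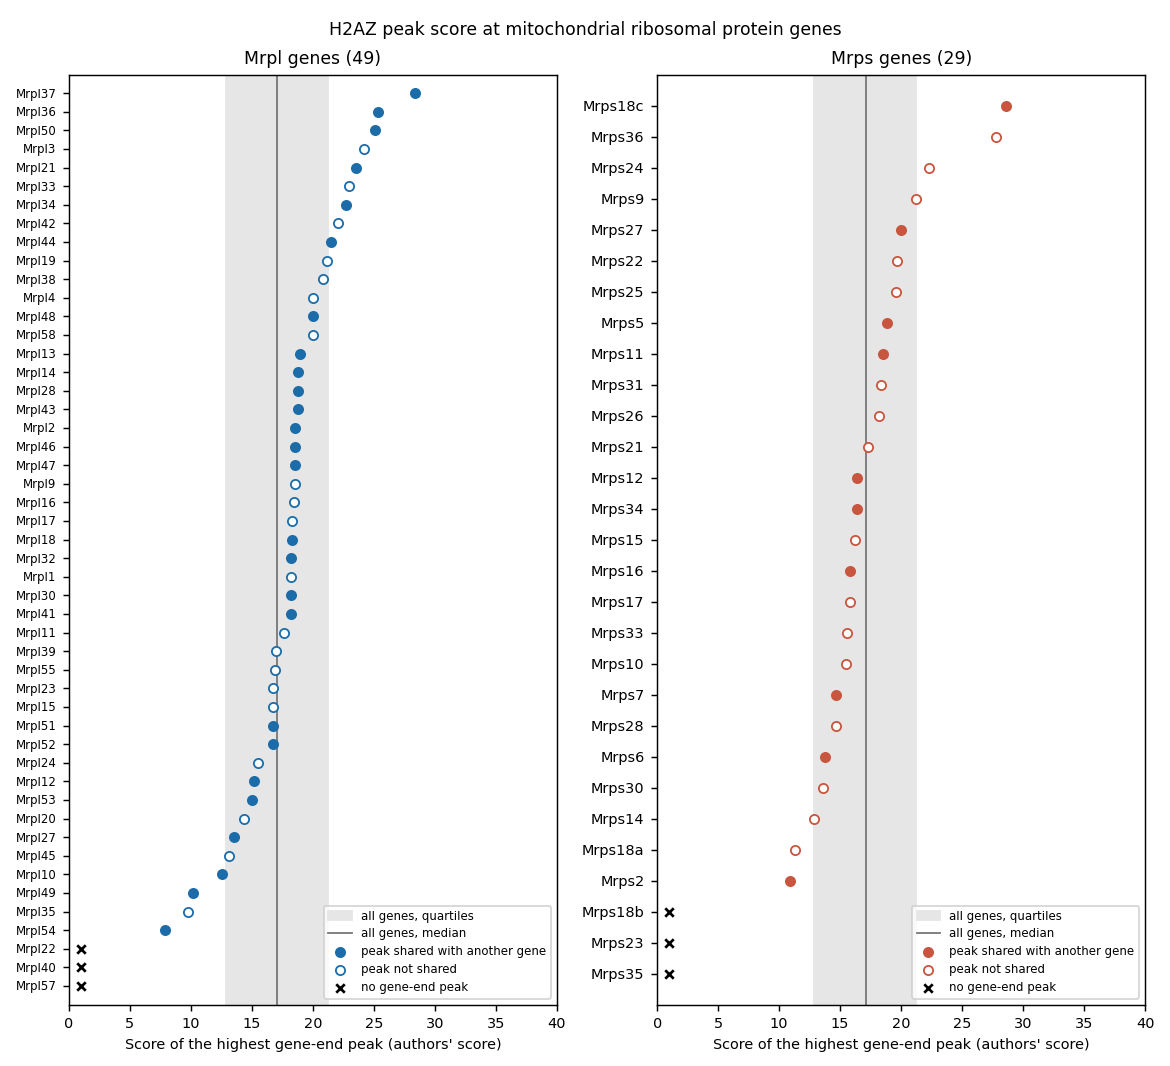
Score of the highest gene-end peak of each Mrpl gene (left) and Mrps gene (right), with filled points for peaks shared with another protein-coding gene, open points for peaks that are not, and crosses for members without a peak. The grey band spans the quartiles and the line marks the median (17.1) of all protein-coding genes with a gene-end peak; most members lie inside the band.

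Mrpl genes had a median score of 18.3 and Mrps genes one of 16.4. Their quartiles overlapped, at 16.7 to 19.99 and 14.9 to 19.4, and no difference is claimed between them. Symbols up to Mrpl36 and Mrps21 mostly name homologues of bacterial ribosomal proteins, and higher numbers mostly name proteins specific to mitochondria. Of 44 members with low numbers 42 had a gene-end peak, with a median score of 18.2. Of 34 members with high numbers 30 had one, with a median of 18.4. Within the small subunit the medians were 15.8 for the 15 low-numbered and 18.3 for the 11 high-numbered genes with a peak, with ranges of 10.9 to 28.6 and 13.6 to 27.7 that overlapped over most of their length.

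The peaks were about as wide as those of other genes. Their median width was 2121 bp with quartiles of 1947 and 2375 bp, against 2207 bp (1901 and 2512 bp) over all genes with a gene-end peak. The widest were those of Mrpl52 (3683 bp), Mrpl34 (3428 bp), Mrpl54 (3095 bp), Mrps34 (3077 bp) and Mrpl48 (2953 bp). All of these were shared with a neighbouring gene, which a wider peak reaches more easily. The peak of Mrpl52 lay beyond its 3′ end, and the one at its 5′ end was 1721 bp wide. The narrowest were those of Mrpl28 (1490 bp), Mrps17 (1538 bp), Mrpl24 (1576 bp), Mrps2 (1581 bp) and Mrpl38 (1609 bp). Width and score were only loosely related among the members. Spearman's rho across the 72 genes was 0.13, against 0.29 across all genes with a gene-end peak. Genes that share a peak share its values, and all come from 1 library.

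**Figure D2:**
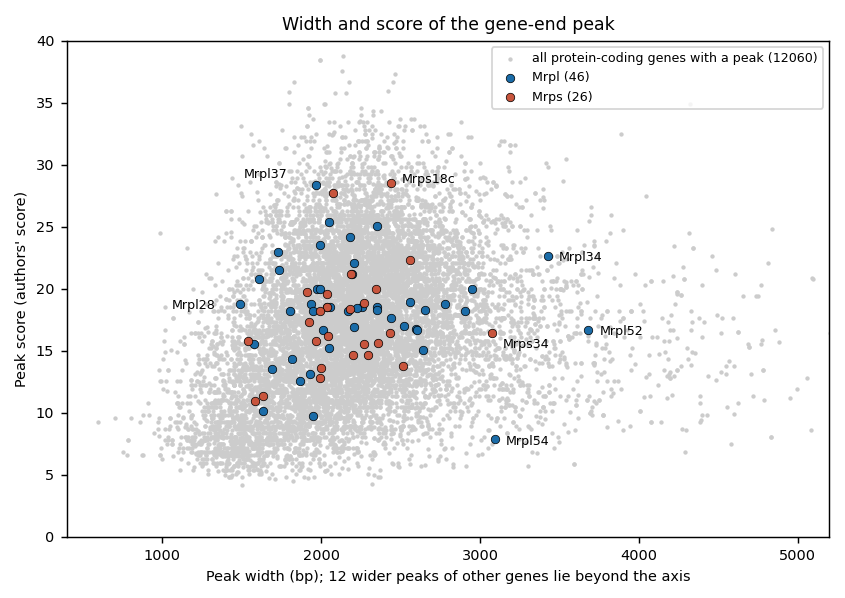
Width (bp) and score of the gene-end peak for Mrpl genes (blue) and Mrps genes (red) over all protein-coding genes with a gene-end peak (grey). The members gather between widths of 1490 and 3683 bp, with Mrpl54 low for its width (7.84 at 3095 bp).

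The peaks lay at the end where transcription starts. The strand was known for 64 of the 72 members, and in 63 of them the highest-scoring peak lay at the 5′ end (98.4%, against 93.6% of all genes with a gene-end peak and a known strand). The exception was Mrpl52, whose higher peak of 16.7 lay beyond its 3′ end beside Mmp14, a metalloproteinase gene, while its 5′ end had a peak of 12.8. Over the 63 members the peak midpoint lay at a median of -34 bp from the 5′ end (quartiles -158 and 137 bp, negative values upstream). Over the 8992 protein-coding genes with a peak at the 5′ end it lay at 116 bp (-58 and 345 bp). The midpoint was downstream of the 5′ end in 28 of 63 members (44.4%) and in 67.3% of all such genes.

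Midpoints lay further upstream where the peak was shared with a divergent gene. In the 25 members whose peak also covered or adjoined the 5′ end of a gene on the opposite strand, the median midpoint was -95 bp. In the 31 members whose peak was not shared it was 23 bp. The same 2 classes over all genes had medians of -11 bp (1556 genes) and 150 bp (6698 genes). A divergent class requires the peak to reach the 5′ end of the partner, so class and midpoint were not independent by the rule used. Midpoints far downstream belonged to genes whose listed starts lie inside the annotated gene end. At Mrpl18 and Mrpl24 the midpoint was 1517 and 1311 bp inside the 5′ end, but 179 and 102 bp upstream of the nearest listed start. At Mrps31 it was 932 bp inside and 41 bp downstream of the nearest listed start. Measured from the nearest listed start, 60 of 64 members (93.8%) had the midpoint within 500 bp. The share was 80.3% of the 9602 protein-coding genes with a gene-end peak and a listed start.

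**Figure D3:**
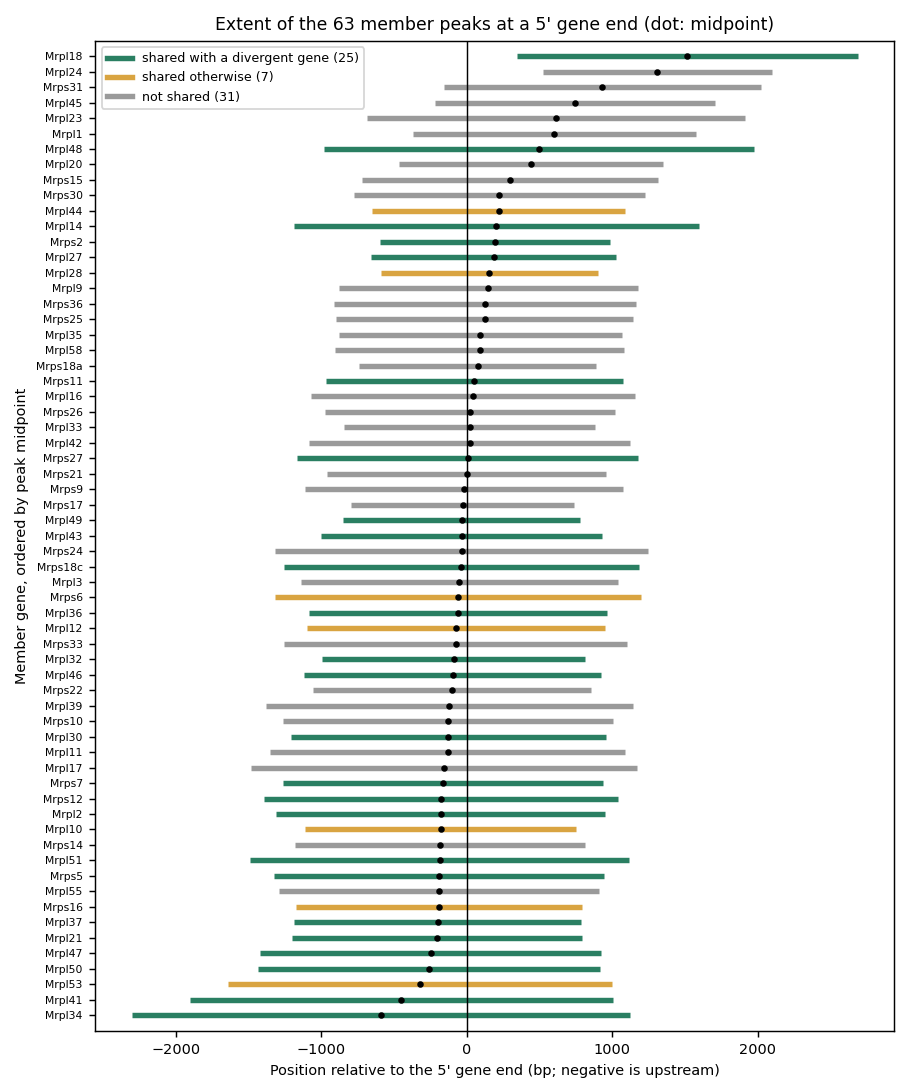
Extent of the 63 member peaks at a 5′ gene end, as bars in bp relative to that end, with a dot at the midpoint, green for peaks shared with a divergent gene, yellow for peaks shared otherwise and grey for peaks not shared. All bars but those of Mrpl18 and Mrpl24 cross 0, and most midpoints lie close to it.

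Many members shared their peak with a neighbour. In 36 of the 72 members (50.0%) the peak also lay at a gene end of another protein-coding gene, against 27.0% of all genes with a gene-end peak. Another protein-coding gene end lay within 2 kb of a gene end in 50 of the 78 members (64.1%), and in 32.2% of all protein-coding genes. The score of a shared peak cannot be divided between the genes it touches. The median score was 18.4 for the 36 shared and 17.9 for the 36 unshared members, and over all genes it was 17.5 and 17.0. The median width was 2262 bp and 2040 bp, and over all genes 2244 bp and 2190 bp. A wider peak more easily reaches another gene end, so width and sharing were not independent by the rule used.

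Most shared peaks lay at the annotated 5′ gene ends of genes on opposite strands. In 25 of the 64 members with a known strand (39.1%, against 16.2% of all such genes) the partner was transcribed from the opposite strand with its 5′ end at the same peak. The distance between those 5′ ends had a median of 136 bp and a range of 13 to 1458 bp, and it was at most 100 bp in 12 of the 25. It was taken without sign between the outermost annotated gene ends, so genes that overlap were counted alike. At 1458 bp, the 5′ end of Tcp1 lay inside Mrpl18, whose listed start was 1696 bp inside its own gene end. The midpoint of the shared peak lay at -2566 bp from the nearest listed start at Mrpl36, and at -1919 bp at Mrps2. Mrpl46 and Mrps11 were the only members next to each other, and 1 peak of score 18.5 and width 2040 bp covered both starts. Their 5′ ends are 42 bp apart, and the promoter printed above for Mrps11 contains the 5′ end of Mrpl46.

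The divergent partners were of many kinds, and some are known for roles in mitochondria, which were not counted over all genes. Mrpl36 (25.4) and Mrpl47 (18.5) shared their peaks with Ndufs6 and Ndufb5, which encode subunits of respiratory complex I. Mrpl43 (18.8) faced Twnk, the gene of the mitochondrial DNA helicase Twinkle, and Mrps12 (16.4) faced Sars2, the gene of mitochondrial seryl-tRNA synthetase. Mrps27 (19.99) faced Ptcd2, a gene of a mitochondrial pentatricopeptide protein.

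Among the other divergent pairs, Mrps18c faced Helq, a DNA helicase gene, and Mrpl37 faced Cyb5rl. Mrpl50 faced Zfp189, Mrpl21 faced Ighmbp2, and Mrpl34 faced Abhd8. Mrpl32 (18.2) faced the proteasome gene Psma2, Mrpl18 (18.2) the chaperonin gene Tcp1, Mrpl51 (16.7) the condensin gene Ncapd2, and Mrpl48 (19.99) the gene of the Golgi GTPase Rab6a. Mrpl49 (10.1) faced Fau, whose product carries a protein of the cytosolic ribosome. Mrpl2 (18.5) faced Klc4, a kinesin light chain gene, Mrpl14 (18.8) faced Tmem63b, and Mrpl30 (18.2) faced Mitd1. Mrpl41 (18.2) faced Pnpla7, Mrpl27 (13.5) Eme1, Mrps5 (18.8) Zfp661, Mrps7 (14.6) Gga3, and Mrps2 (10.9) 1700007K13Rik.

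In 5 members the partner was arranged otherwise. These were Mrpl28 with Pgap6, Mrpl12 with Hgs, Mrps6 with Slc5a3, Mrps16 with Cfap70 and Mrpl52 with Mmp14. In 6 members the strand of a gene of the pair was not known, namely Mrpl10 with Lrrc46, Mrpl13 with Mtbp, Mrpl44 with Wdfy1, Mrpl53 with Ccdc142, Mrpl54 with Apba3 and Mrps34. Mrps34 (16.4) had 3 partners at its peak, Eme2, Nme3 and Mapk8ip3.

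Peaks at both ends, or inside the gene, were found in a few members. A second gene-end peak was present in 6 of 72 members (8.33%, against 7.99% of all genes with a gene-end peak). At Mrpl36 the 2 peaks scored 25.4 (chr13:73327418-73329468, over the 5′ gene end and Ndufs6) and 22.7 (chr13:73330233-73332108), and the second covered the listed start of Mrpl36. Mrpl38 had 20.8 at one end and 19.7 at the end beside Trim65. The second peaks of Mrpl2 (13.8) and Mrpl10 (10.7) lay beside Cul7 and Osbpl7. Mrpl58, whose product is a peptidyl-tRNA hydrolase of the large subunit, had 19.99 at its 5′ end and 11.2 at its 3′ end, where transfer RNA genes are annotated.

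The low score of Mrps2 came from the outer gene end alone. Its interior held a peak of 22.1 (chr2:28467204-28468892, width 1689 bp) centred 18 bp upstream of the listed start of the gene. Mrpl48 held 3 interior peaks, of 15.5, 13.7 and 8.61, and the first 2 covered further listed starts. Mrps27 held a peak of 9.94 that was 8818 bp from its 5′ end and covered no listed start.

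The 6 members without a gene-end peak were Mrpl22, Mrpl40, Mrpl57, Mrps18b, Mrps23 and Mrps35. None had a peak in its interior either, where 12.9% of all protein-coding genes without a gene-end peak did. Mrpl22 encodes a homologue of bacterial protein L22, which lines the exit tunnel of the ribosome, and Mrps18b is a paralogue of the high-scoring Mrps18c. The nearest listed peak was 26.9 kb from Mrpl57 (score 13.7, at Sap18) and 64.7 kb from Mrpl22 (score 24.1). It was 883.1 kb from Mrpl40, 1176.7 kb from Mrps35, 1373.6 kb from Mrps23 and 2280.1 kb from Mrps18b.

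Those last 4 genes lay in long stretches without any listed peak, which also held many other genes. Stretches of over 1 Mb between neighbouring peaks numbered 349 and held 2564 protein-coding genes (11.8%). The stretch around Mrps18b (chromosome 17, 33630246 to 40879154) was 7.25 Mb long and held 240 protein-coding genes, 41 of them with a promoter of 20 or more CpG dinucleotides. That was the largest number of such promoters in any of the 349 stretches. Those around Mrps23 (3.18 Mb), Mrpl40 (2.03 Mb) and Mrps35 (2.58 Mb) held 17, 12 and 8 and ranked 5, 7 and 8. Genome-wide, 81.4% of genes with 20 or more CpG in the promoter had a gene-end peak.

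The peak numbers in the list give a further view of these stretches. Numbers rose with position along every chromosome, and 66.1% of the numbers up to 32646 were listed, so a gap in the numbers between flanking peaks was read as unlisted peaks there. Between the peaks flanking Mrps35 and Mrpl22 no number was missing, between those flanking Mrpl40 and Mrpl57 1 was missing, and between those flanking Mrps23 and Mrps18b 2 were. No missing number was found for 40.3% of all protein-coding genes without a gene-end peak that had listed peaks on both sides. Whether the missing peaks lay at the members, and whether reads could be placed in these stretches, was not tested. Outside such stretches 72 of 74 members had a gene-end peak (97.3%), against 62.8% of all protein-coding genes. This restriction was chosen after the data were seen, and it could only raise both shares, since a gene inside a stretch without peaks has no peak.

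**Figure D4:**
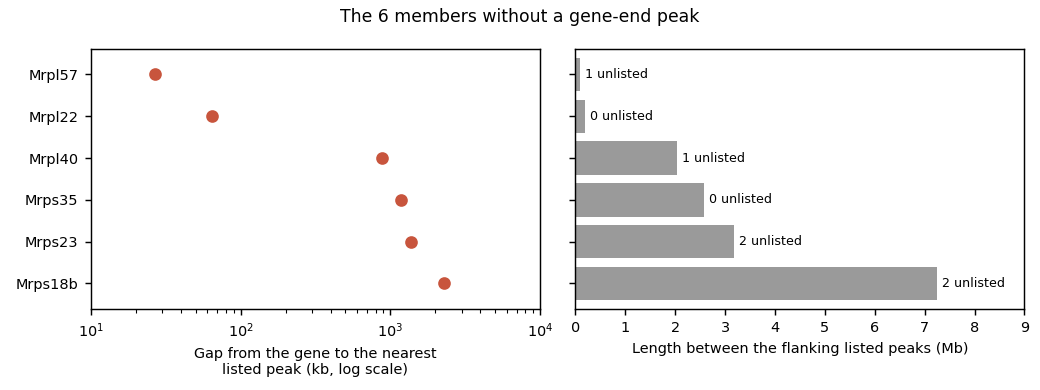
For each of the 6 members without a gene-end peak, the gap to the nearest listed peak (left, kb, log scale) and the length between the flanking listed peaks (right, Mb), with the number of unlisted peak numbers in between. Mrpl57 and Mrpl22 lie 26.9 and 64.7 kb from a peak, and the other 4 lie 883.1 kb or more away.

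The promoters of members were rich in CpG and held some motifs more often than promoters at large. Their median number of CpG in 300 bases was 21 (range 7 to 39), against 13 over 17492 protein-coding genes with a promoter in the table and 20 over those that also had a gene-end peak. The 5 members without a peak that had a listed promoter held 16 to 36 CpG with a median of 25. The median of members with a peak was 21. Whether the number of CpG bears on the lack of a peak was not tested. Of the 38 members with 20 or more CpG, 34 had a gene-end peak (89.5%, against 81.4% of all such genes).

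The ETS motif CCGGAAG was found in 24 of 69 member promoters (34.8%) and in 11.9% of all. The YY1 motif AAGATGGCG was found in 8 (11.6%, against 1.92% of all) and the NRF1 motif in 3 (4.35%, against 1.33%). The GC box GGGCGG was found in 34 (49.3%, against 46.3%) and the TATA box in 4 (5.80%, against 13.3%). Over genes with a gene-end peak the shares were 17.4% for ETS, 2.95% for YY1, 2.01% for NRF1, 65.6% for the GC box and 6.74% for the TATA box. Overlaps between motifs were allowed in these counts.

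The ETS motif stood in 4 of the 5 listed promoters of members without a peak, those of Mrpl22, Mrpl57, Mrps18b and Mrps23. Over all 7890 promoters of protein-coding genes without a gene-end peak the share was 5.3%. Whether the motif bears on the lack of a peak was not tested. Among members with a peak, the median score was 18.2 with or without the ETS motif (18.25 and 18.2). For the YY1 motif the medians were 21.03 for the 8 members with it and 18.2 for those without, and over all genes with a gene-end peak 18.2 and 17.2. The scores of the 8 ran from 9.72 at Mrpl35 over 11.3 at Mrps18a, 18.5 at Mrps11, 19.99 at Mrps27, 22.1 at Mrpl42, 22.3 at Mrps24 and 25.4 at Mrpl36 to 28.3 at Mrpl37, and so spanned most of the range of the members. The score used was that of the highest gene-end peak, which need not cover the promoter searched. At Mrpl36 the peak of 25.4 did not cover the listed start, and the peak that did scored 22.7. No test was made of the differences with and without a motif. A match describes these letters only and does not show binding of a factor.

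Other genes of mitochondrial translation also mostly had a gene-end peak. In 4 further lists 56 of 63 genes had one (88.9%, against 55.4% of all protein-coding genes). Their median score was 19.6, against 17.1 over all genes with a gene-end peak. All 5 genes of mitoribosomal proteins under other symbols had a peak, with low to middle scores. Dap3, a gene of the small subunit, had 16.1, Aurkaip1 14.9, Ptcd3 12.8, Gadd45gip1 12.1 and Chchd1 11.8.

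All 11 genes of mitochondrial translation factors had a peak, with scores from 18.5 to 32.2. The highest were at Guf1, an elongation factor gene (32.2), Mtfmt, the gene of the enzyme that formylates the initiator transfer RNA (27.9), and Mtrf1l, a release factor gene (25.6). Of 27 mitoribosome assembly genes 22 had one, led by Malsu1 (26.2), Mrm3, a ribosomal RNA methyltransferase gene (25.9), and Rpusd4, a pseudouridine synthase gene (25.4). Mrm1, Trub2, Mettl17, Mpv17l2 and Rcc1l had none, though Rcc1l held an interior peak of 29.7. Of 20 genes of mitochondrial aminoacyl-tRNA synthetases and the amidotransferase 18 had one, led by Nars2 (33.4), Yars2 (28.0) and Iars2 (27.0), and Aars2 and Vars2 had none. Aars2 held an interior peak of 10.7.

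The genes of the cytosolic ribosome also mostly had a peak, but of lower score. By symbol 81 genes were taken, which include a few that are no ribosomal proteins, such as Rps19bp1. Against 55.4% of all protein-coding genes, 69 of these 81 (85.2%) had a gene-end peak. Their median score was 11.9 with quartiles of 10.1 and 15.8, against 18.2 (15.6 and 19.99) for the members. Below the lower quartile of all genes lay 43 of these 69 genes and 7 of the 72 members. Their peaks had a median width of 1875 bp and midpoints at a median of -144 bp from the 5′ end over 50 genes. A partner shared the peak in 20 of the 69. The number of CpG in the promoter was the same as for the members, with a median of 21, and the ETS motif was found in 37.7% of 61 promoters. No test was made of the difference between these families.

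**Figure D5:**
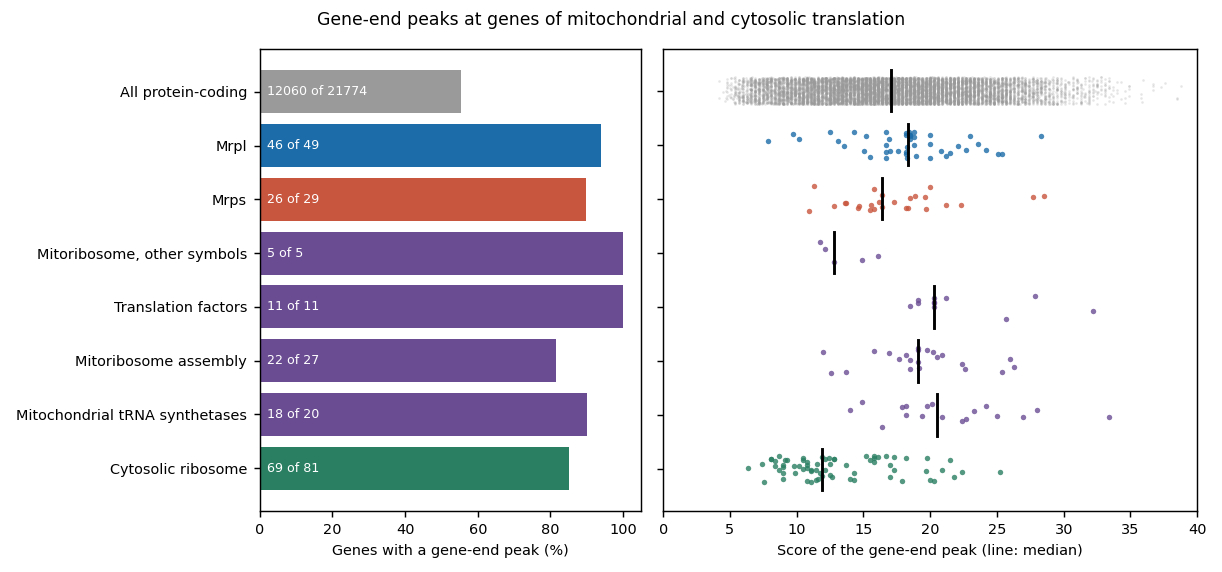
Share of genes with a gene-end peak (left, %, with counts) and scores of those peaks (right, 1 point per gene, line at the median) for all protein-coding genes, Mrpl and Mrps genes, 4 lists of mitochondrial translation and cytosolic ribosomal protein genes. Medians run from 11.9 for the cytosolic ribosome to 20.5 for the mitochondrial tRNA synthetases.

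The deposited list held 21592 peaks, and 46 that stood out of chromosome order were left out. Markers of radial glia and neural progenitors had a gene-end peak in 9 of 12 genes, with a median score of 7.46 below that of the members, and Sox2, Prom1 and Sox1 had none. The share was 3 of 6 for neuron markers, 1 of 3 for endothelium and 0 of 3 for microglia. Over all protein-coding genes it was 55.4%. The peaks counted for Hes5 and Neurod6 lay at their 3′ ends. Sox1, Rbfox3 and Cx3cr1 had no gene-end peak but held interior peaks of 6.26, 15.8 and 6.56. A peak of H2AZ does not show that a gene is expressed, so these counts do not check the cell type.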

How the data were processed

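H2AZ ChIP and input DNA were sequenced from neural progenitor cells, with 1 library each. The deposited file gives peak positions and a score per peak; the score is the authors' own value, and its meaning is not named. The deposited file's peak names point to the caller MACS. The submitters' processing notes name CASAVA 1.4, FastQC, Bowtie2 2 and the build mm9; how the input was used, and with which settings, is not stated in those sources. Positions were read as GRCm38 without conversion, because 51.6% of peaks reached within 1 kb of an end of a protein-coding gene in the RefSeq table of GRCm38.p6, against 12.0 and 12.2% after a shift of 10 kb either way. Starts are printed counted from 1.

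Genes on unplaced sequences (348) and 46 peaks out of chromosome order were left out, leaving 21546 peaks. A gene-end peak overlaps the 1 kb on either side of a gene's outermost start or end by at least 1 bp. Strand and starts came from the RefSeq promoter table. For CpG and motifs 1 promoter per gene was used (the start nearest the 5′ gene end). Distances to the nearest listed start used all listed starts of a gene. Genes on the opposite strand were called partners where both 5′ ends met the same peak. The members, the lists and the rule that names genes were chosen with earlier results of these data known. Named were the 10 highest and 5 lowest scores, the 5 widest and 5 narrowest peaks, members without a peak, neighbouring members, sharing partners, and of each other list of mitochondrial translation the 3 highest scores and genes without a peak. Other genes named, such as those with a second or an interior peak, were chosen after their values were seen. Python 3.11.15, numpy 2.4.6 and pandas 2.3.3 were used, and the assignment of peaks was tested on simulated data.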

Additional observations from a re-analysis of the deposited data

How the results depend on the processing

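The count of members with a gene-end peak was 72 in the windows of 2 and 5 kb, with peaks out of order kept and with peaks required to overlap the gene. It was 70 with a window of 500 bp, 69 by the peak midpoint and 67 with only peaks of a score at or above 11.9, the median of the list (85.9% of members, against 44.4% of all protein-coding genes). At the 5′ gene end alone it was 64 of the 69 members with a known strand (92.8%, against 53.1% of all such genes). The median score ran from 18.2 to 18.3 and the median width from 2066 to 2174 bp over their alternatives. Between 34 and 41 members shared a peak, the latter with all annotated genes as neighbours (56.9%, against 40.7% of all genes). Leaving out genes in stretches over 1 Mb without a peak, and scores at any listed start, were chosen after seeing the data. No paired analysis was possible because there was 1 library per group and no test. Numbers are missing from the list, the depth is unknown, and a gene without a listed peak may still carry H2AZ.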
